A study of Mus musculus with 2 samples.

Results

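The erythroid miRNA genes Mir451a, Mir144 and Mir486 were examined in small RNA from the mouse embryonic heart. They were chosen by name: every listed gene whose identifier maps to Mir144 or to a symbol that starts with Mir451 or Mir486. The rule found 3 of the 1973 genes in the count tables. Hearts of healthy B6NCrl embryos of both sexes were pooled at embryonic day 16.5 (E16.5), and the total RNA was read as microRNA-seq. The labels define a single group with 2 biological replicates, replicate 1 from a pool whose size was not given in the sources used here and replicate 2 from 41 embryos. No treatment or genotype was compared, so the questions were how much of each red cell miRNA the heart libraries held, from which strand it came and how far the pools differed.

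Red cells carry a small set of very abundant miRNAs. Mir144 and Mir451a are processed from a shared primary transcript that the transcription factor GATA1 switches on as red cells mature, and both are known for their part in late red cell maturation. Most miRNA hairpins are cut by Drosha and then by Dicer. The hairpin of miR-451 is too short for Dicer and is sliced by Argonaute 2 instead. Mir486 sits in Ank1, the gene of the ankyrin that ties the red cell membrane to its skeleton, and miR-486 is known from both red cells and muscle. A heart taken with its blood therefore holds miRNA of circulating red cells beside that of its own cells. In such bulk libraries, fewer cells of a type and less RNA per cell cannot be told apart.

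The mature sequences are shown because they separate the members into different seed groups and place miR-451a in its unusual hairpin. RefSeq entries (build GRCm38.p6, the mm10 assembly of the files) were matched for 2 of the 3 members, Mir144 and Mir451a, and for Mir451b, which lies on the other strand at Mir451a. All sequences run 5′ to 3′. In the mature sequences the capitals mark the seed, bases 2 to 8, through which a miRNA recognises its targets.
miR-451a: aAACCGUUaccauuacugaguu
miR-144-5p: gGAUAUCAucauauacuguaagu
miR-144-3p: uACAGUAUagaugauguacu
miR-451b: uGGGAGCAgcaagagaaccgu

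The 4 seeds differed from each other, and none of them occurred in a mature miRNA of another gene among the 1738 mature RefSeq entries. The nearest relative was miR-101a-3p, which shared bases 2 to 7 with miR-144-3p and differed at the last seed base. It is printed here, again with its seed in capitals, to show that difference.
miR-101a-3p: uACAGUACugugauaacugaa

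Mir101a, the gene of miR-101a, had 942 sense counts in replicate 1 and 767 in replicate 2. Expressed per 1000000 sense counts at miRNA genes (CPM, the level used throughout) that was 138 ± 10.1 CPM (SD, n = 2), below Mir144 in both libraries. The Mir101a hairpin shares a run of at least 20 bases with 1 other miRNA hairpin of the annotation, and Mir144 shares none. Reads that match more than a single place are assigned to no gene, so the comparison holds only for reads placed once. The deposited counts are per gene, so the 5p and 3p arms of Mir144 cannot be told apart.

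The hairpins show where the mature sequences lie. Here the capitals mark the mature miRNAs.
Mir451a: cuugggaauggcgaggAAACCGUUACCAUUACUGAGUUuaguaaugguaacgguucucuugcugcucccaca
Mir144: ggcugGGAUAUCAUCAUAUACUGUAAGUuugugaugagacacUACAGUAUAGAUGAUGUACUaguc
Mir451b: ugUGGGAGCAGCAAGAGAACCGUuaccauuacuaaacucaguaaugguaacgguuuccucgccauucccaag

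Mir144 (ENSMUSG00000065401.1) lies at chr11:78073005-78073070 on the plus strand and spans 66 bases. Mir451a (ENSMUSG00000070065.1) follows on the same strand at chr11:78073170-78073241 and spans 72 bases, with 99 bases between the hairpins. Neither lies in an annotated gene of its strand, and the nearest protein-coding gene, Eral1, lies on the minus strand with 134 bases between it and Mir451a. Mir451b covers exactly the same bases as Mir451a on the minus strand. Mir486 (ENSMUSG00000070084.3) lies at chr8:23142555-23142682 on the plus strand, inside Ank1. Of the Ank1 transcripts, 15 span it and 0 have an exon that overlaps it, so it is intronic. On the minus strand it overlaps the antisense transcript Gm15816 and the miRNA gene Mir3107. Mir451b and Mir3107 are not among the listed genes.

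**Figure D1:**
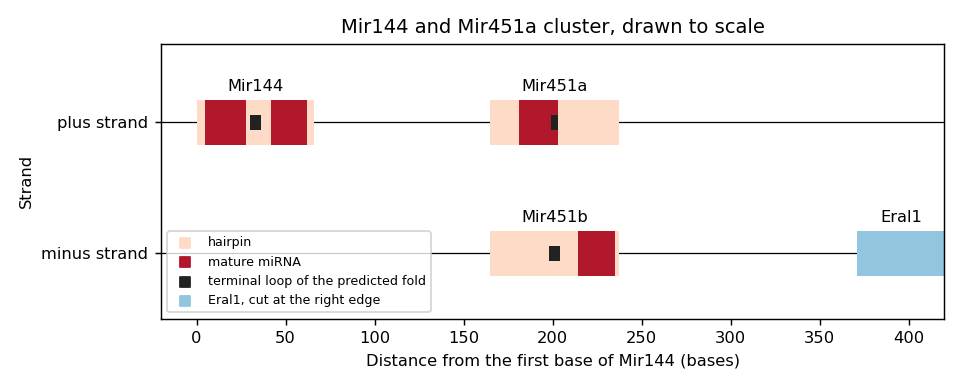
Map of the Mir144 and Mir451a cluster. The x axis is the distance in bases from the first base of Mir144 and the rows are the strands; pale boxes are hairpins, red boxes mature miRNAs, black boxes the terminal loop of the predicted fold, and the blue box the near end of Eral1. The mature miR-451a reaches to the end of its loop, at 202 bases, while both miR-144 arms stop short of theirs.

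The predicted fold of Mir451a is a single hairpin with an unbroken stem of 17 base pairs and a terminal loop of 4 bases at positions 35 to 38. The mature miR-451a occupies positions 17 to 38, that is, all but the first base of its length lies in that stem or in the whole of the loop. For Mir144 the longest unbroken stem had 9 base pairs and the loop 6 bases at positions 31 to 36. Its mature arms, at positions 6 to 28 and 43 to 62, left the loop free.

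Folds were predicted in the same way for the listed genes with a RefSeq hairpin, 869 in all, of which 822 gave a single hairpin loop. The median longest stem was 9 base pairs, the value of Mir144, and 46 of the 822 hairpins (5.60%) had a stem of at least the 17 base pairs of Mir451a. Mir451a was the only one of the 822 whose terminal loop lay wholly inside a mature miRNA. In 796 no loop base did, and the next highest, Mir7041, had 57.1% of its loop covered. Mir451a had 1 annotated mature miRNA and Mir144 had 2; a single mature entry was found for 277 of the 822 hairpins (33.7%). These are properties of the sequence and do not use the counts.

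**Figure D2:**
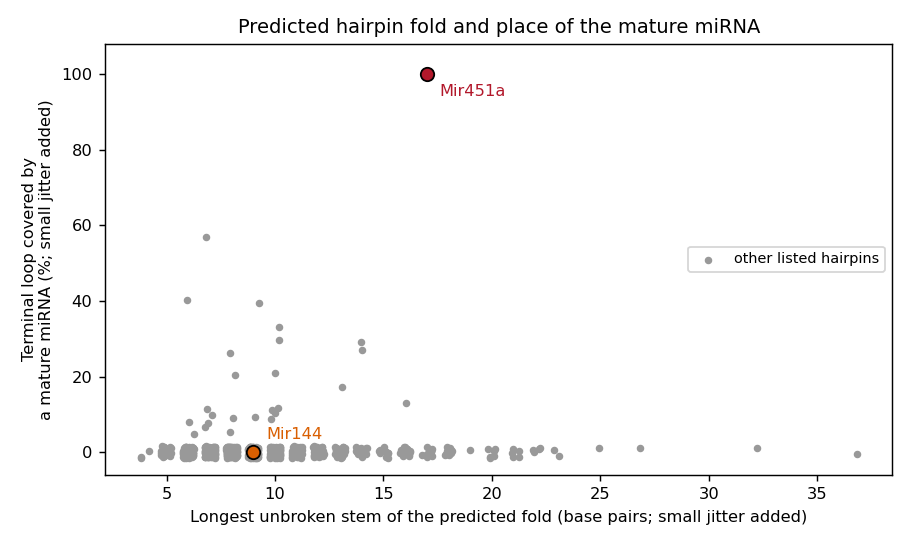
Predicted folds of 822 listed miRNA hairpins. The x axis is the longest unbroken stem in base pairs and the y axis the share of the terminal loop that a mature miRNA covers, in percent, both with a small random shift to separate points. Mir451a stands at 17 base pairs and 100%, and Mir144 at 9 base pairs and 0%.

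Mir451a was the most abundant of the members. It had 10734 sense counts in replicate 1 and 7962 in replicate 2. These counts correspond to 1658 CPM (exact 95% interval 1627 to 1690) and 1363 CPM (1333 to 1393), a mean of 1511 ± 209 CPM (SD, n = 2). The gene stood at rank 66 and rank 73 of the listed genes, and it was lower in replicate 2.

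Mir144, the partner in the cluster, had 2454 and 2080 sense counts. Its level was 379 CPM (364 to 394) in replicate 1 and 356 CPM (341 to 372) in replicate 2, with a mean of 368 ± 16.3 CPM. It stood at ranks 116 and 118, and the intervals of the libraries overlapped.

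Mir486 had 525 and 502 sense counts. Its level was 81.1 CPM (74.3 to 88.3) in replicate 1 and 85.9 CPM (78.6 to 93.8) in replicate 2, with a mean of 83.5 ± 3.42 CPM. It stood at ranks 198 and 195, again with overlapping intervals. The order Mir451a, Mir144, Mir486 held in both libraries, with gaps far wider than the spread between them. The intervals cover counting error only. They treat reads as independent, which PCR copies of a molecule are not. CPM of different miRNAs compares numbers of reads, and differences in how efficiently each was captured were not tested.

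The Mir486 level leaves out reads that match more than a single place, which the tables assign to no gene; they came to 29.5% of all reads in replicate 1 and 31.9% in replicate 2. The Mir486 hairpin held a run of 22 bases that equals its own reverse complement elsewhere in the hairpin, so a read that lies within that run matches both strands of the locus. Among the 365 detected genes (at least 10 sense counts in each library), only Mir486 and Mir374b had such a run of 20 bases or more. The longest run in Mir451a was 16 bases and in Mir144 9 bases, against a median of 8 over detected genes. Mir451a and Mir144 shared no 20-base sequence with another miRNA hairpin of the annotation, while Mir486 shared such a sequence with 1 other. How many reads Mir486 lost by matching more than a single place cannot be read from the counts. Its place below Mir144 therefore holds only for reads placed once.

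Within a library the ratio of 2 genes does not depend on the scaling. Mir451a exceeded Mir144 4.37-fold in replicate 1 (exact 95% interval 4.19 to 4.57) and 3.83-fold in replicate 2 (3.65 to 4.02). The intervals did not overlap, so the proportion of the clustered genes differed between the pools by more than the counting error of independent reads, by 1.14-fold. Mir451a exceeded Mir486 20.4-fold (18.7 to 22.4) and 15.9-fold (14.5 to 17.4). Mir144 exceeded Mir486 4.67-fold (4.25 to 5.15) and 4.14-fold (3.76 to 4.58), with overlapping intervals. The ratios over Mir486 hold only for reads placed once, because reads of it that match several places are left out.

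The members together held 13713 sense counts in replicate 1 and 10544 in replicate 2, or 0.212% (Wilson 95% interval 0.208 to 0.215) and 0.180% (0.177 to 0.184) of the sense total. Mir451a made up 78.3% (77.6 to 79.0) of the members' counts in replicate 1 and 75.5% (74.7 to 76.3) in replicate 2. Mir144 made up 17.9% and 19.7%, and Mir486 3.83% and 4.76%. The sums and these shares leave out Mir486 reads that match several places, so they too hold only for reads placed once.

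The genes nearest in mean level give the members a scale. Above Mir451a stood Mir425 at 1628 ± 60.5 CPM and Mir324 at 1720 ± 5.06 CPM. Below it stood the Hox-cluster gene Mir10b at 1471 ± 141 CPM and Mir449a at 1463 ± 635 CPM. The library values of Mir451a overlapped those of Mir425, Mir10b and Mir449a, so their ranges do not separate, while Mir324 was higher in both libraries and did not overlap.

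Around Mir144 fewer ranges overlapped. The myeloid miRNA gene Mir223 (402 ± 3.79 CPM) and Mir134 (402 ± 25.1 CPM) lay above it in both libraries, and Mir24-2 (348 ± 6.66 CPM) below it in both. Only Mir339 (366 ± 21.9 CPM) overlapped with Mir144. Of the neighbours, Mir24-2 and Mir669c share a run of at least 20 bases with other miRNA hairpins, so their levels hold only for reads placed once. Around Mir486 the values of all 4 neighbours overlapped with its own, though Mir669c lay below it in each library: Mir221 (84.2 ± 21.2 CPM), Mir204 (84.0 ± 6.99 CPM), Mir669c (79.7 ± 6.36 CPM) and Mir672 (79.4 ± 17.4 CPM).

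**Figure D3:**
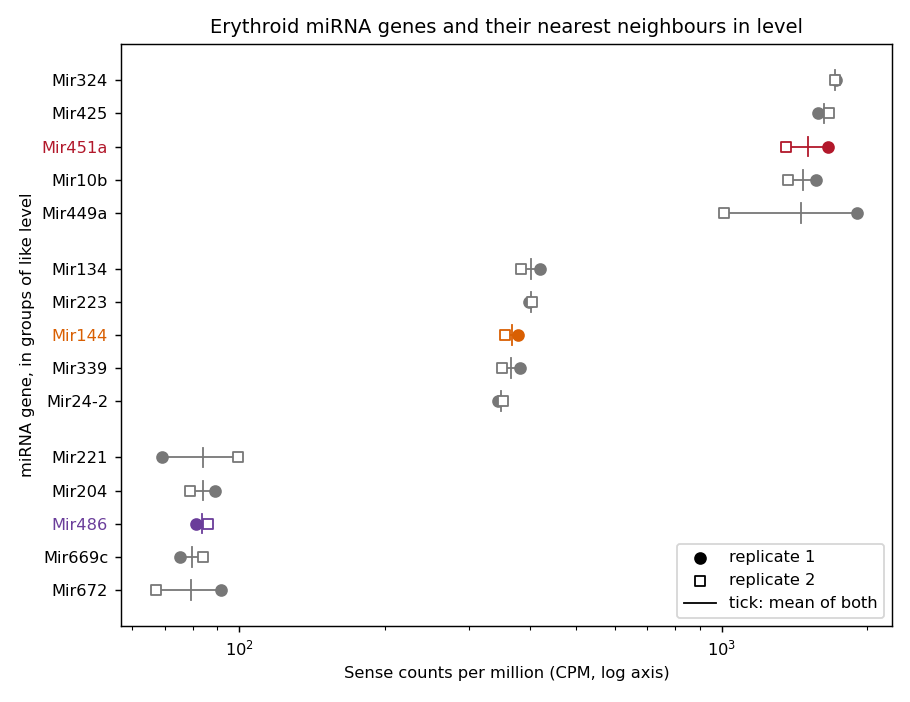
Level of each erythroid gene (coloured) with the 2 detected genes above and the 2 below it in mean level (grey). The x axis is the level in CPM on a log scale; filled circles are replicate 1, open squares replicate 2, and the tick is their mean. Mir451a (1363 and 1658 CPM) and Mir144 (356 and 379 CPM) were lower in replicate 2, and Mir486 (81.1 and 85.9 CPM) was higher there.

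The pools were then compared over all 365 detected genes by an exact binomial test, two-sided, on counts scaled by TMM (a trimmed mean of ratios between libraries). It compares these libraries and not conditions. Genes were called at 2-fold or more with a Benjamini-Hochberg adjusted p below 0.05. None of the 3 members was called, against 12 of all 365 genes (3.29%). At an adjusted p under 0.05 with no minimum fold, 1 of 3 passed, against 169 of 365 (46.3%), and the same member alone had an unadjusted p under 0.05.

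That member was Mir451a, which was 1.20-fold lower in replicate 2 (95% interval 1.16 to 1.23; exact binomial test, adjusted p 7.49e-33). On the log2 scale its ratio of replicate 2 over replicate 1 was -0.26. The difference exceeded the counting error of independent reads. A larger absolute log2 ratio was found for 154 of the 365 detected genes (42.2%), and the median absolute log2 ratio was 0.21.

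Mir144 had a log2 ratio of -0.065 (95% interval -0.15 to 0.020; exact binomial test, adjusted p 0.225). Mir486 had a log2 ratio of 0.11 (-0.070 to 0.29; exact binomial test, adjusted p 0.351). Neither passed, and the intervals leave room for a shift in either direction. The median log2 ratio of the members was -0.065, beside 0.018 over all detected genes.

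**Figure D4:**
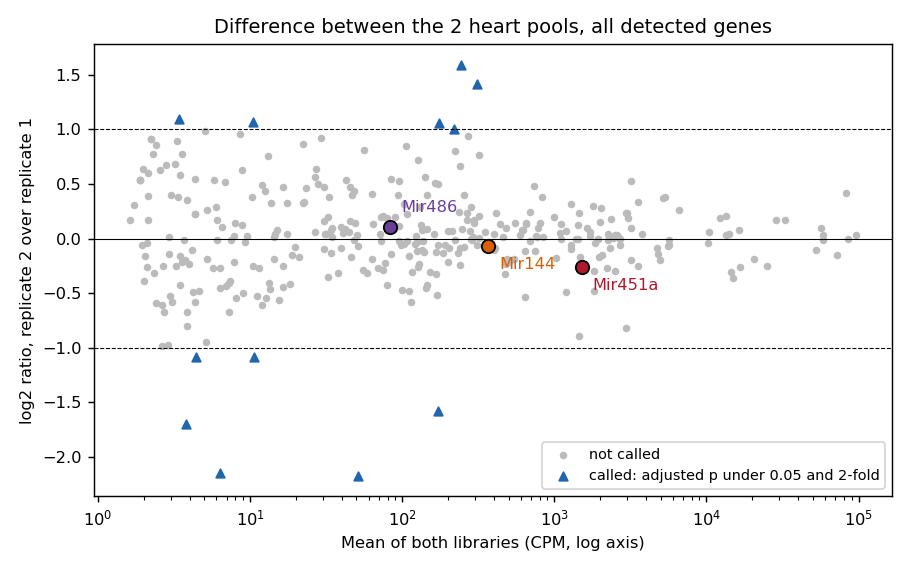
Difference between the pools for all 365 detected genes. The x axis is the mean CPM on a log scale, the y axis the log2 ratio of replicate 2 over replicate 1, the dashed lines mark 2-fold and blue triangles the 12 called genes. Mir451a lies at -0.26, Mir144 at -0.065 and Mir486 at 0.11, inside the band of the genes that were not called.

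The strand of the counts differed between the members. At Mir451a 0 of 10734 counts in replicate 1 and 0 of 7962 in replicate 2 lay on the opposite strand, where Mir451b is annotated. These zeros allow up to 0.0279% and 0.0377% of the counts of both strands. The best ungapped match of miR-451a to the Mir451b hairpin had 18 of 22 bases identical. At Mir144 the opposite strand also had 0 counts, which allows up to 0.122% and 0.144%.

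At Mir486 the opposite strand held 39 counts beside 525 sense counts in replicate 1, and 40 beside 502 in replicate 2. That was 6.91% (Wilson 95% interval 5.10 to 9.31) and 7.38% (5.47 to 9.89) of the counts of both strands, with overlapping intervals. Mir3107 and Gm15816 are annotated on that strand. The tables do not show to which of them these counts belong.

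Opposite-strand counts were uncommon. Of the 377 genes with at least 10 counts of both strands in each library, 333 (88.3%) had 0 in both libraries, as Mir451a and Mir144 did. Only 19 (5.04%) had at least 1% in both libraries, and Mir486 was among them. By the mean opposite-strand share Mir486 stood at rank 16 of the 377.

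**Figure D5:**
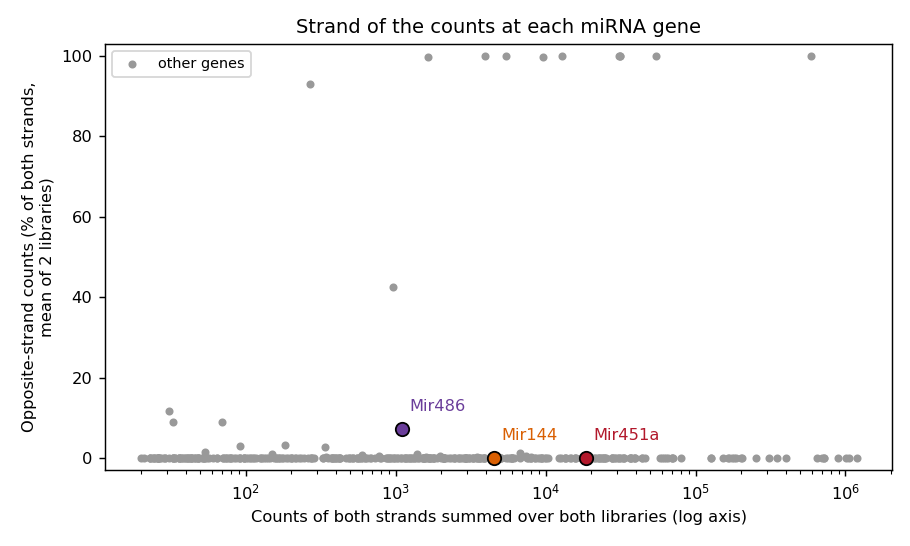
Opposite-strand counts as a percentage of the counts of both strands (y axis, mean of the libraries) against the summed counts of both strands (x axis, log scale) for 377 genes. Mir451a and Mir144 lie at 0%, as do most genes, and Mir486 at 7.15%.

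Other miRNAs written about in red cell formation were held by the tables for 18 of the 20 genes on that list, and all 18 were detected; Mir191 and Mir376a were not among the listed genes. Together they made up 1.94% of sense counts in each library. The hairpins of Mir16-1, Mir16-2, Mir24-2, Mir181a-1 and Mir181a-2 each share a run of at least 20 bases with 1 other miRNA hairpin. Reads that match both places are left out, so these levels and the share hold only for reads placed once. The highest was Mir22 at 10300 ± 321 CPM, followed by Mir15a at 2254 ± 40.0 CPM. In each library Mir22 held more counts than all other genes of the list together, so the share is mostly its own. At an adjusted p under 0.05, 9 of the 18 genes were higher in replicate 2 and 5 lower, while 4 missed the threshold. Over all 365 detected genes, 95 (26%) were higher and 74 (20.3%) lower by the same rule. The median log2 ratio of the 18 was 0.077, beside 0.018 over all. The 2-fold rule called 1, Mir363 of an X-linked cluster, at 2.01-fold higher. With total-count scaling (1.97-fold), DESeq2 size factors (1.98-fold) or counts of either strand (1.995-fold) it was not called.

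Those that were higher included Mir16-1 (1.18-fold, 1452 ± 150 CPM), Mir155 of activated leukocytes (1.74-fold, 222 ± 82.2 CPM) and Mir221 (1.46-fold), known to lower the stem cell factor receptor Kit. The 5 lower genes were Mir22 (1.03-fold), Mir96 (1.09-fold), Mir181a-2 (1.22-fold), Mir183 (1.14-fold) and the hypoxia-induced Mir210 (1.08-fold, 742 ± 51.6 CPM). Mir15a, Mir24-2, Mir222 and Mir223 did not pass.

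Markers of other cells in the heart were set beside the members. Of the leukocyte and platelet list 4 of 6 symbols were matched, Mir142b, Mir150, Mir155 and Mir223. They held 0.0586% and 0.0717% of sense counts. By sense counts alone the erythroid genes exceeded these 4 genes 3.61-fold in replicate 1 and 2.52-fold in replicate 2. Mir146a was not found under that symbol, and the gene listed as Mir146 (525 and 614 sense counts) was left out of the sum. Of the 3 matched genes that were detected, Mir155 and the lymphocyte gene Mir150 (1.41-fold) were higher in replicate 2, and Mir223 at 1.03-fold did not pass. Mir142b had 0 and 1 sense counts. On its opposite strand, where the leukocyte gene Mir142 lies, 11332 and 19615 counts were found, or 1751 and 3358 per 1000000 sense counts. With these counts given to Mir142, a step chosen after seeing the data, the direction turned. The leukocyte and platelet list, still without Mir146, then exceeded the members 1.10-fold in replicate 1 and 2.26-fold in replicate 2. The part of blood cell composition in the Mir451a difference was not tested.

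The ratio of Mir451a to single leukocyte genes followed these levels. By sense counts Mir451a exceeded Mir223 4.15-fold (exact 95% interval 3.98 to 4.34) and 3.37-fold (3.22 to 3.53). It exceeded Mir155 10.1-fold (9.51 to 10.8) and 4.87-fold (4.61 to 5.14), and Mir150 71.1-fold (60.5 to 84.0) and 42.1-fold (36.5 to 48.9). Each of these ratios was larger in replicate 1, with intervals that did not overlap. The opposite-strand counts at Mir142b, 11332 and 19615, exceeded the 10734 and 7962 counts of Mir451a in both libraries. Against them too, the ratio of Mir451a was larger in replicate 1.

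Heart muscle and endothelial genes as sums held far more counts than the members. The 3 heart muscle genes, which lie in myosin genes, held 6.77% and 6.71% of sense counts, 32.0-fold and 37.2-fold more than the members. Among them 1 was higher (Mir208a, 1.20-fold), 1 lower (Mir208b, 1.01-fold) and Mir499 did not pass. The endothelial genes, 3 of 4 listed and led by Mir126a, held 8.60% and 8.44%, or 40.6-fold and 46.7-fold more than the members. Mir126a itself did not pass (log2 ratio -0.0026), nor did Mir222, while Mir221 was 1.46-fold higher in replicate 2. Mir221 (84.2 ± 21.2 CPM) stood at the level of Mir486, and Mir222 (34.1 ± 0.87 CPM) below all 3 members, so the endothelial sum is that of Mir126a. The liver gene Mir122, of the organ that makes most blood cells in the fetus, had 1035 and 942 sense counts, or 161 ± 0.97 CPM, and did not pass. Mir451a exceeded it 10.4-fold (9.73 to 11.1) and 8.45-fold (7.90 to 9.05).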

How the data were processed

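MicroRNA-seq of E16.5 mouse heart was analysed in 2 libraries. The authors deposited raw counts, 1 row for each miRNA gene, in either strand and in each strand separately, made on mm10 with annotation M4 per the file lists deposited with the libraries. Aligner, counter, trimming and the strand of each column are not given in the sources used here. Sense was taken to be the strand with more gene counts in both libraries. Lines that name no gene held 57.4% and 54.7% of the 15207730 and 12885555 reads and stayed out of totals, which left 6473482 and 5841568 sense counts. A count of 0 allows up to 3 counts, or 0.463 and 0.514 CPM.

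Symbols and positions came from GENCODE M21, which held 1894 of the 1973 identifiers. A chi-square test of the counts gave 163.7 per detected gene between the libraries, far above sampling noise, so they were treated as separate. Nothing in the labels beyond the replicate numbers says how the pools were drawn, so p-values measure only counting error between them. TMM sizes came from edgeR 4.0.16 in R 4.3.3, with 0.5 added to counts before log2. Intervals are exact Clopper-Pearson or Wilson. The test was tested on simulated counts that held counting error only, which says nothing on the wider spread between these libraries. Folds came from ViennaRNA 2.7.2; ratios, tests and intervals from scipy 1.17.1 in Python 3.11.15. Genes named were the members, the 2 detected genes above and below each, and the genes of 5 lists with values for at least the 2 highest; Mir101a, Mir374b and Mir7041 were named after their values were seen. Members and lists were chosen with earlier results of these data known. Alternatives were total-count and DESeq2 1.42.0 scaling, no count filter, no minimum fold, the unstranded column, other denominators and leaving out a replicate.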

Additional observations from a re-analysis of the deposited data

How the results depend on the processing

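Of 35 alternatives over 10 results, leaving out a replicate aside, 26 stayed the same and 9 moved. Staying the same meant keeping direction and side of the threshold, or moving by less than the SD between libraries. The count of called genes was judged instead by its fold distance from 12. Opposite-strand counts were given to Mir142 in a step added after seeing the data. The log2 ratio of the members over the leukocyte and platelet list, with Mir146 left out, then turned from 1.59 to -0.66. The count of 12 genes called between the pools was 11 with total-count scaling, DESeq2 size factors or the unstranded column, 21 of 725 genes without a count filter and 169 with no minimum fold. Per 1000000 of all reads in the library, Mir451a stood at 662, Mir144 at 161 and Mir486 at 36.7, and the members' share was 0.0860%. Without Mir143, the most abundant gene, in the total, Mir144 stood at 407 CPM and Mir486 at 92.4 CPM. With the unstranded column Mir144 stood at 346 CPM. The log2 ratio of Mir451a between the pools ranged from -0.28 to -0.25 over 4 alternatives and passed in each (exact binomial test, adjusted p 1.83e-39 to 5.99e-32). That of Mir144 ranged from -0.090 to -0.063 and that of Mir486 from 0.084 to 0.11, and neither passed in any. Leaving out a replicate leaves a single library, so no difference can then be tested; the levels are then those of the remaining library, which with 2 libraries says nothing on stability. Depth limits the Mir486 values most, with 502 counts in replicate 2, and the reads matching several places limit them by an amount that cannot be read from the tables.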
